A study of Mus musculus with 8 samples.

Results

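Interferon-stimulated genes were followed across 8 libraries of whole perigonadal adipose tissue of C57BL/6 mice. A gene had been knocked out in the adipocytes of 4 mice, and the other 4 were wild type. The set is a list of 29 gene symbols, and all 29 were found by symbol among the 23212 genes counted and had enough counts to be tested. Mice of both genotypes were 20 weeks old and had eaten a 45% fat diet for 12 weeks from an age of 8 weeks. The sources used here do not give the driver of the knockout or say whether the wild-type mice carried other alleles. The tissue was homogenized whole, so its RNA came from adipocytes together with macrophages, lymphocytes, vessel cells and fibroblasts. The adipocyte genes Adipoq and Plin1 were at 3541 to 7110 CPM (a count relative to the size of its library) and at 1290 to 2043 CPM. In such bulk samples, fewer cells of a type and less RNA per cell cannot be told apart.

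Interferons are secreted proteins of antiviral defence. Type I interferons bind the receptor pair Ifnar1 and Ifnar2, and the attached kinases Jak1 and Tyk2 phosphorylate transcription factors, Stat2 among them, which join Irf9 and bind interferon-stimulated response elements in DNA. The genes switched on in this way encode nucleic acid sensors, inhibitors of viral replication, and proteins that amplify or end the signal. Macrophages and dendritic cells respond strongly, while most other cells, adipocytes included, can respond too.

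A short form of the response element, GAAA followed by any 2 bases and a further GAAA (TTTC and TTTC on the other strand), was searched on both strands of the 300 bases around each annotated start, 250 before it and 50 after, with overlapping matches counted separately. RefSeq promoters of build GRCm38.p6 matched 22 of the 29 genes by symbol, and 13 of these held at least 1 match. Of all 27025 genes in that table, 3.99% did. The sequences are shown as background to the set. Whether the element has a part in the variation between mice, described further on, was not tested. A match describes these letters and is not a measured binding site. In Isg15, 3 overlapping matches lay upstream of the start. Its 250 upstream bases (chr4:156200819-156201068, minus strand), 5′ to 3′ with the matches in capitals, read as follows.
Isg15: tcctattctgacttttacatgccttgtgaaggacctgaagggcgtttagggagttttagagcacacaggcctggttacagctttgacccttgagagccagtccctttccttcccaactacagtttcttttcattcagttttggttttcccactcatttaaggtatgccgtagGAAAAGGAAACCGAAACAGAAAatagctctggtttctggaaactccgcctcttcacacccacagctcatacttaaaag

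Shorter windows around the matches in other genes, each with up to 10 flanking bases and on the gene's own strand, show single and repeated elements.
Ifit1: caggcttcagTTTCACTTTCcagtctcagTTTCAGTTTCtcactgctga
Bst2: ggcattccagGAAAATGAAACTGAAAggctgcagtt
Oas1a: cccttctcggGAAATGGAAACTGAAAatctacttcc
Gbp2: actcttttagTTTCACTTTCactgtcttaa
Stat2: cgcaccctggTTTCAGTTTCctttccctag
Eif2ak2: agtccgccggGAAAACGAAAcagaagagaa
These windows lie at chr19:34640775-34640823 (Ifit1, plus strand), chr8:71537577-71537612 (Bst2, minus), chr5:120907520-120907555 (Oas1a, minus), chr3:142620594-142620623 (Gbp2, plus), chr10:128270266-128270295 (Stat2, plus) and chr17:78882535-78882564 (Eif2ak2, minus). In Isg15 the matches began 78 to 66 bases before the start, in Bst2 130 and 124 bases before it, and in Eif2ak2 at base 19 after it. No match was found in the windows of Ifi35, Ifi44, Ifit2, Irf7, Irf9, Oasl1, Oasl2, Trim25 and Xaf1. Dhx58, Mx1, Mx2, Oas2, Parp14, Usp18 and Zbp1 were not analysed here for promoter sequence.

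**Figure D1:**
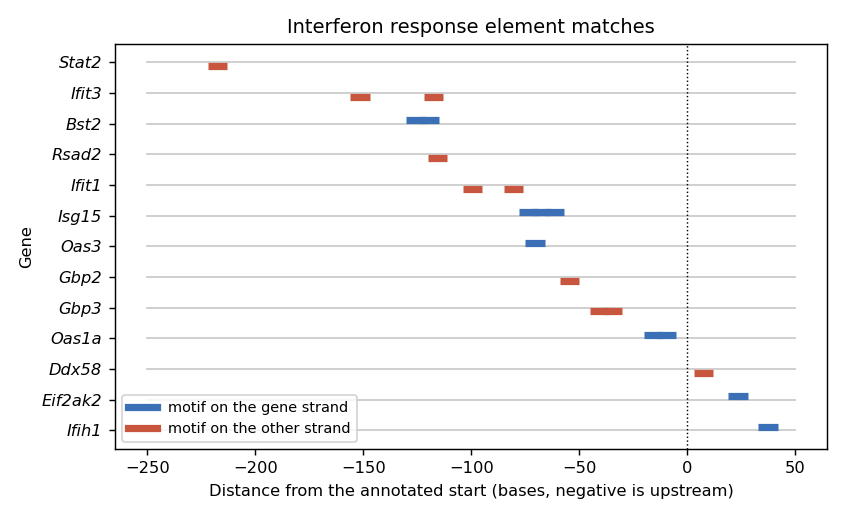
Positions of the response element matches in the 13 genes that held one, by distance in bases from the annotated start, with blue for the gene's own strand and red for the other. The matches run from 222 bases upstream in Stat2 to base 33 downstream in Ifih1.

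The libraries held 46444435 to 51431956 counts each. The list of 7 markers of ciliated and epididymal epithelium summed to 166 CPM in knockout library 2 and to 59.8 CPM in wild-type library 3. On this whole list wild-type library 3 did not stand apart, since wild-type library 2 was at 54.7 CPM and the other 5 libraries at 5.90 to 32.1 CPM. Of the 7 markers, Krt8 and Krt18 are keratins that mesothelium also expresses, and they were highest in wild-type library 2 among the wild-type libraries. Without these keratins, a choice made after the values were seen, the remaining 5 (Foxj1, Epcam, Cuzd1, Cdh1 and Cldn7) were at 31.5 CPM in wild-type library 3, 106 CPM in knockout library 2 and 0.379 to 1.80 CPM in the other 6. Wild-type library 3 and knockout library 2 were already known from an earlier analysis to differ in epithelial genes, so the main results are given for all libraries and for the remaining 6.

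No interferon-stimulated gene differed between the genotypes past the threshold, an adjusted p of 0.05 over all 14493 tested genes in edgeR's quasi-likelihood test. Of all tested genes, 0.0138% passed it. At an unadjusted p under 0.05 there were also 0 of the 29 genes, against 2.23% of all tested genes, and DESeq2 and limma voom called 0 of the 29 as well. The wild-type and knockout libraries overlapped in all 29 genes, while 1.44% of tested genes had groups that did not overlap. The log2 fold changes, knockout over wild type, ran from -0.34 for Mx1 to 0.56 for Oas2, with 13 above 0 and 16 below. Their median was -0.021, and the median over all tested genes was 0.011, with 53.1% above 0. Every 95% interval included 0, and 22 of the 29 lay within -1 and 1 on the log2 scale. The other 7 intervals, those of Zbp1, Oas1a, Oas2, Oas3, Oasl1, Ifit1 and Mx1, reached past 1 in at least 1 direction.

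**Figure D2:**
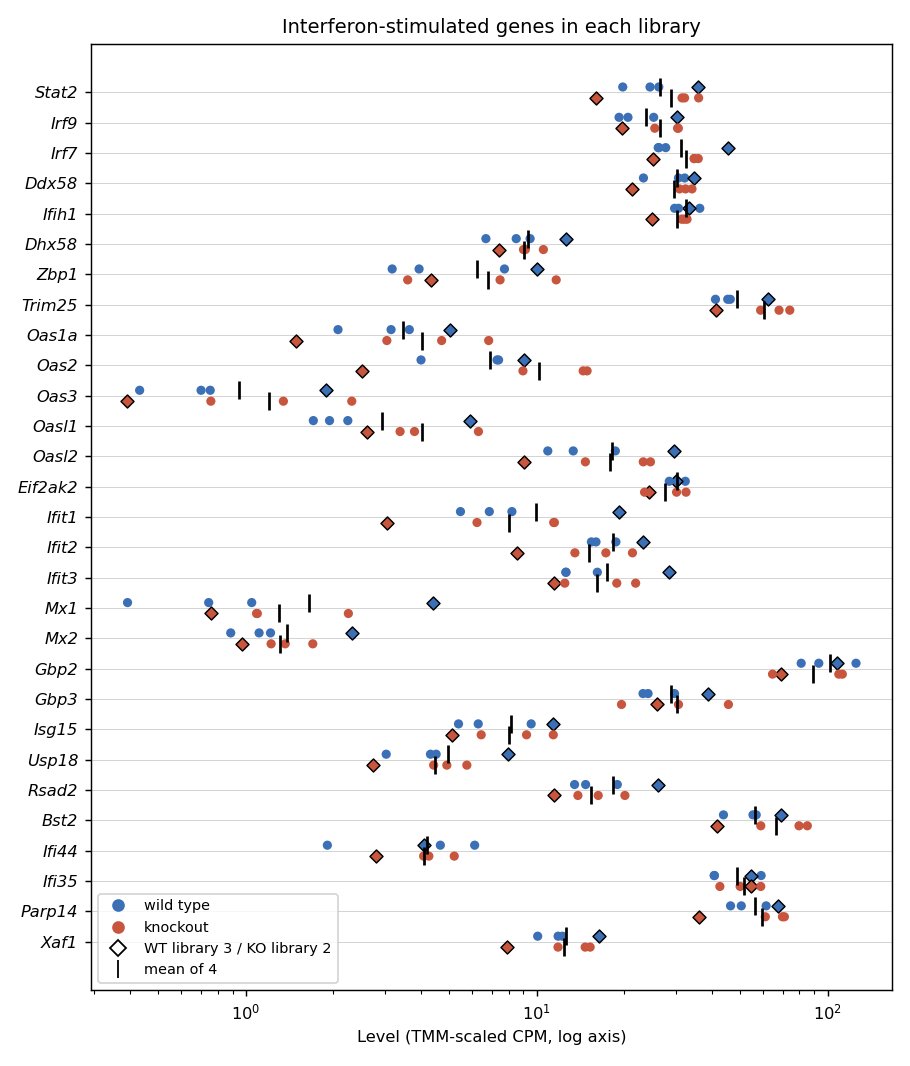
Level of each gene in each library, in TMM-scaled CPM on a log axis, with wild type in blue, knockout in red and the mean of 4 as a black bar. Black-edged diamonds mark wild-type library 3, at the upper end of its group in most genes, and knockout library 2, at the lower end.

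Per kilobase of exon, on the RPKM scale, the genes spanned more than 2 orders of magnitude. Averaged over the 8 libraries, Bst2 was the most abundant at 80.0 RPKM, followed by Gbp2 at 38.8, Ifi35 at 36.9 and Irf7 at 17.2 RPKM. Gbp2 and Ifi35 exchanged places in the knockout, with means of 36.2 and 37.9 RPKM, against 41.5 and 35.9 RPKM in wild type. The lowest were Mx2 at 0.556, Mx1 at 0.495 and Oas3 at 0.227 RPKM. C57BL/6 mice carry a defective Mx1 allele that makes no working protein. Even the lowest count of any of the 29 genes in a library was 19.

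The transcription factors that carry the signal were slightly above 0 in fold change, and none passed. Irf7, the inducible factor that drives the later wave of interferon production, measured 26.3, 26.2, 45.3 and 27.8 CPM across wild-type libraries 1 to 4, against 34.7, 25.1, 35.9 and 34.8 CPM across knockout libraries 1 to 4. Wild-type library 3 was the highest of all 8 and knockout library 2 the lowest. The log2 fold change of Irf7 was 0.06 (95% interval -0.40 to 0.51). Stat2, the STAT particular to type I and III interferon signalling, measured 24.5, 26.3, 35.9 and 19.8 CPM across the wild-type mice against 32.2, 16.03, 31.6 and 36.0 CPM across the knockout mice, or 0.12 on the log2 fold scale (SE 0.26). Irf9, the DNA-binding partner of the STATs, was at 20.6, 25.2, 30.3 and 19.2 CPM and at 30.7, 19.6, 25.5 and 30.5 CPM (0.16 on the log2 fold scale, SE 0.19). In both genes wild-type library 3 and knockout libraries 1 and 4 were high, and wild-type library 4 and knockout library 2 low, so that the groups overlapped over nearly their whole range.

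Among the sensors, Ddx58 encodes RIG-I and Ifih1 encodes MDA5, which detect different kinds of viral RNA, and Dhx58 encodes their regulator LGP2. Ifih1 varied little: 36.4, 29.8, 33.5 and 30.7 CPM in wild type and 32.2, 24.9, 32.9 and 31.5 CPM in knockout. Its log2 fold change of -0.10 (95% interval -0.36 to 0.16) had the smallest SE of the 29 genes, 0.12. Ddx58 averaged 30.2 ± 4.93 CPM in wild type against 29.7 ± 5.80 CPM in knockout, and Dhx58 9.33 ± 2.50 against 9.03 ± 1.27 CPM (SD, n = 4 each). Pairs of means elsewhere give wild type before knockout in the same way. Zbp1, a sensor of Z-form nucleic acid that can start necroptosis, ranged from 3.18 to 10.1 CPM in wild type and from 3.60 to 11.7 CPM in knockout. Trim25, a ubiquitin ligase that acts on RIG-I, had the smallest unadjusted p of the 29 genes (0.146, adjusted p = 1 in edgeR). It measured 45.3, 41.2, 62.6 and 46.3 CPM across the wild-type mice against 58.8, 41.4, 68.1 and 74.1 CPM across the knockout mice, or 0.31 on the log2 fold scale (SE 0.20). In Trim25, 2 of 4 knockout libraries lay above every wild-type library, and knockout library 2 lay among the lowest wild-type libraries.

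The OAS enzymes make 2′-5′-linked oligoadenylates that activate RNase L, and their genes lie close together on chromosome 5, with Oas2 at positions 120730333 to 120749848, Oas3 at 120753098 to 120777659 and Oas1a at 120896257 to 120907525. Oas2 had the largest log2 fold change of the 29 genes, 0.56 (SE 0.49, 95% interval -0.56 to 1.67). It measured 7.30, 7.39, 9.04 and 4.00 CPM across the wild-type mice against 8.97, 2.51, 14.4 and 14.9 CPM across the knockout mice, so the knockout held both the lowest library and the highest ones. Oas1a measured 3.16, 3.65, 5.05 and 2.07 CPM across the wild-type mice against 4.71, 1.48, 3.05 and 6.84 CPM across the knockout mice (0.21 on the log2 fold scale, SE 0.45). Oas3 stayed near 1 CPM, at 0.944 ± 0.646 and 1.20 ± 0.838 CPM. Oasl1, which restrains Irf7 translation, was at 2.94 ± 1.97 and 4.03 ± 1.60 CPM, and the related Oasl2 at 18.2 ± 8.36 and 17.9 ± 7.35 CPM. Reads shared between members of this family, or of the IFIT, GBP and Mx families, cannot be separated with certainty in these counts. Eif2ak2 encodes PKR, the kinase that stops translation on sensing double-stranded RNA. Eif2ak2 measured 32.4, 30.2, 30.1 and 28.6 CPM across the wild-type mice against 32.6, 24.4, 23.5 and 30.2 CPM across the knockout mice (-0.13 on the log2 fold scale, SE 0.12). It is the only one of the 29 genes whose exons overlap another gene in the deposited annotation, sharing 2040 of 6371 exonic bases with Gm6548, so its counts are less certain.

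The IFIT proteins bind foreign RNA and block its translation. Their genes form a row on chromosome 19, Ifit2 at 34550694 to 34576534, Ifit3 at 34583529 to 34588982 and Ifit1 at 34640889 to 34650009. Ifit1 measured 6.87, 8.22, 19.2 and 5.47 CPM across the wild-type mice against 11.5, 3.05, 6.23 and 11.4 CPM across the knockout mice (-0.30 on the log2 fold scale, SE 0.50). Ifit2 measured 18.7, 15.4, 23.2 and 15.98 CPM across the wild-type mice against 21.3, 8.54, 17.3 and 13.5 CPM across the knockout mice (-0.27 on the log2 fold scale, SE 0.26). Ifit3 was at 17.4 ± 7.50 and 16.2 ± 5.02 CPM. In all 3 genes wild-type library 3 was the highest of the 8 libraries and knockout library 2 the lowest.

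Of the large GTPases, Mx1 and Mx2 sit on chromosome 16 and Gbp2 and Gbp3 on chromosome 3. Mx1 measured 0.392, 0.745, 4.40 and 1.05 CPM across the wild-type mice against 1.09, 0.761, 1.09 and 2.25 CPM across the knockout mice. Its wild-type mean of 1.65 ± 1.86 CPM therefore rested largely on library 3, and its SE of 0.72 was the largest of the set. Mx2 was at 1.38 ± 0.639 and 1.31 ± 0.305 CPM. The guanylate-binding proteins respond strongly to interferon gamma as well. Gbp2 measured 93.3, 125, 108 and 81.1 CPM across the wild-type mice against 112, 69.4, 64.7 and 109 CPM across the knockout mice (-0.19 on the log2 fold scale, SE 0.22), and Gbp3 at 28.96 ± 7.14 and 30.4 ± 11.1 CPM. In Gbp2 and Gbp3 knockout library 3, not library 2, was the lowest.

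Isg15 encodes a ubiquitin-like protein that is attached to other proteins, and Usp18 removes it and also damps signalling at the receptor. Isg15 measured 6.29, 9.57, 11.4 and 5.38 CPM across the wild-type mice against 9.22, 5.10, 6.44 and 11.4 CPM across the knockout mice. The means, 8.16 ± 2.81 and 8.04 ± 2.82 CPM, gave a log2 fold change of -0.02 (95% interval -0.73 to 0.69). Usp18 measured 4.31, 4.51, 7.97 and 3.04 CPM across the wild-type mice against 4.91, 2.74, 4.42 and 5.75 CPM across the knockout mice (-0.15 on the log2 fold scale, SE 0.33). Both genes were high in wild-type library 3 and knockout library 4 and low in wild-type library 4 and knockout library 2.

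Bst2, or tetherin, holds budding virus at the cell surface, and Rsad2, or viperin, makes a chain-terminating nucleotide. Bst2 measured 56.8, 55.4, 68.9 and 43.8 CPM across the wild-type mice against 85.2, 41.7, 58.9 and 79.7 CPM across the knockout mice (0.24 on the log2 fold scale, SE 0.23). Rsad2 measured 13.5, 18.9, 26.1 and 14.7 CPM across the wild-type mice against 16.3, 11.4, 13.9 and 20.1 CPM across the knockout mice (-0.25 on the log2 fold scale, SE 0.24). Although the fold changes differ in sign, knockout library 2 was the lowest library in both genes.

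Parp14, an ADP-ribosyltransferase, measured 61.5, 50.5, 67.5 and 46.4 CPM across the wild-type mice against 61.1, 36.2, 69.9 and 71.0 CPM across the knockout mice (0.08 on the log2 fold scale, SE 0.22). Ifi35, a leucine-zipper protein, measured 40.8, 59.1, 54.7 and 40.7 CPM across the wild-type mice against 50.03, 54.6, 42.6 and 58.9 CPM across the knockout mice (0.08 on the log2 fold scale, SE 0.16). Ifi35 was an exception to the usual order, since knockout library 2 was not low. Xaf1, an antagonist of the caspase inhibitor XIAP, was at 12.6 ± 2.68 and 12.4 ± 3.37 CPM, and Ifi44 at 4.20 ± 1.75 and 4.09 ± 0.990 CPM.

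The larger differences lay between mice of 1 genotype, and the genes moved together. The within-genotype SD of log2 CPM had a median of 0.44 over the 29 genes, from 0.16 in Ifih1 to 1.10 in Mx1, against 0.25 over all tested genes, and 26 of the 29 lay above that value. Between the highest and the lowest of the 8 libraries the fold difference had a median of 2.28 and reached 11.2 in Mx1. Wild-type library 3 was above its genotype mean in 28 of the 29 genes, with a median deviation of 0.46 log2 units, and wild-type library 4 in 1 of 29, with a median of -0.29. Knockout library 4 was above its genotype mean in 28 genes (median 0.34), knockout library 1 in 25 (median 0.23), and knockout library 2 in 1 (median -0.51). Wild-type libraries 1 and 2 and knockout library 3 lay between, with medians of -0.11, -0.006 and -0.12. Over all tested genes the same medians stayed between -0.014 and 0.004. In 22 of the 29 genes wild-type library 3 was the highest of its genotype and knockout library 2 the lowest of its own, a pattern found in 8.71% of all tested genes.

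**Figure D3:**
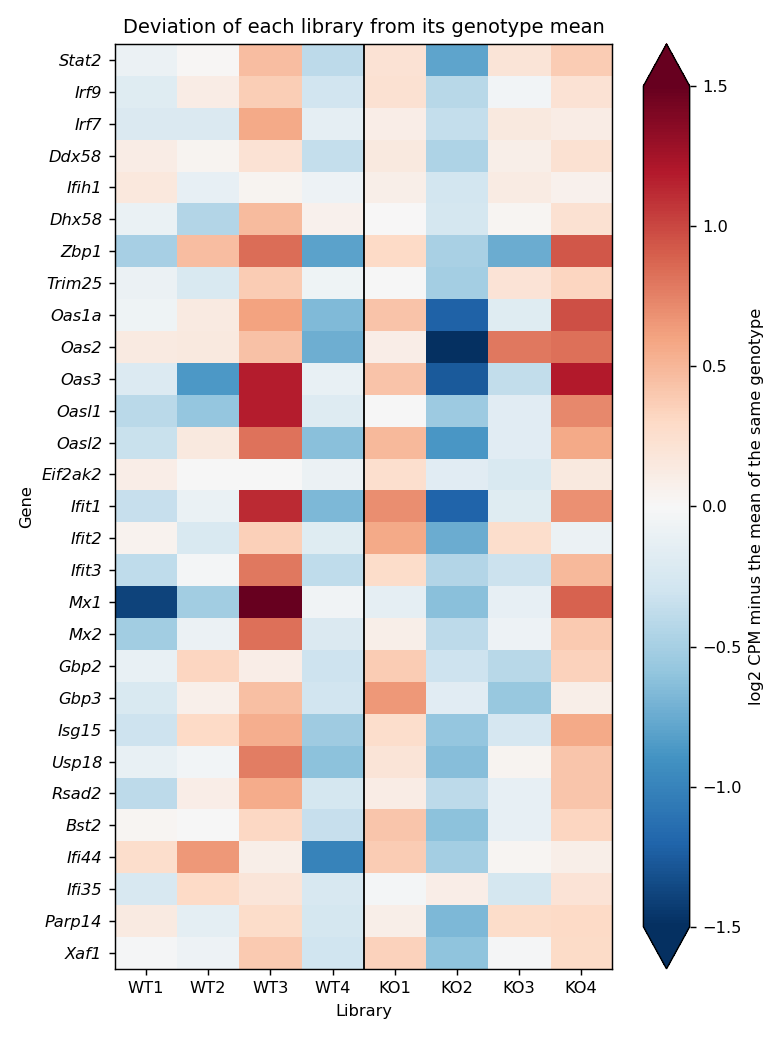
Each library's log2 CPM minus the mean of its genotype, for the 29 genes (rows) and 8 libraries (columns), red above and blue below the mean, with colours capped at 1.5 log2 units. The columns of wild-type library 3 and knockout libraries 1 and 4 are mostly red and those of wild-type library 4 and knockout library 2 mostly blue.

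Levels of cell type markers also differed between mice. All 12 macrophage markers had counts in every library, and their summed level was 526 to 1634 CPM in wild type and 727 to 2477 CPM in knockout. Wild-type library 3 (1634 CPM) and knockout libraries 1 and 4 (1506 and 2477 CPM), which were high in interferon-stimulated genes, were also high in macrophage markers. Wild-type library 4, the lowest of its genotype in 19 of the 29 genes, was likewise high in macrophage markers, at 1341 CPM, whereas wild-type libraries 1 and 2 were at 526 and 611 CPM. Knockout library 2 was at 727 CPM. The 12 T and NK cell markers summed to 6.43 to 16.2 CPM in wild type and 8.37 to 27.2 CPM in knockout, with Gzmb at 0 in wild-type library 1, and the 7 conventional dendritic cell markers to 31.3 to 97.7 CPM in wild type and 43.0 to 76.4 CPM in knockout. For plasmacytoid dendritic cells, a major source of type I interferon, the 6 markers summed to 8.63 to 15.8 CPM in wild type and 9.81 to 16.8 CPM in knockout, most of it Lag3, which T cells also express, and Siglech was at 1.11 CPM or less in every library. The part of cell composition in the differences between mice was not tested.

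**Figure D4:**
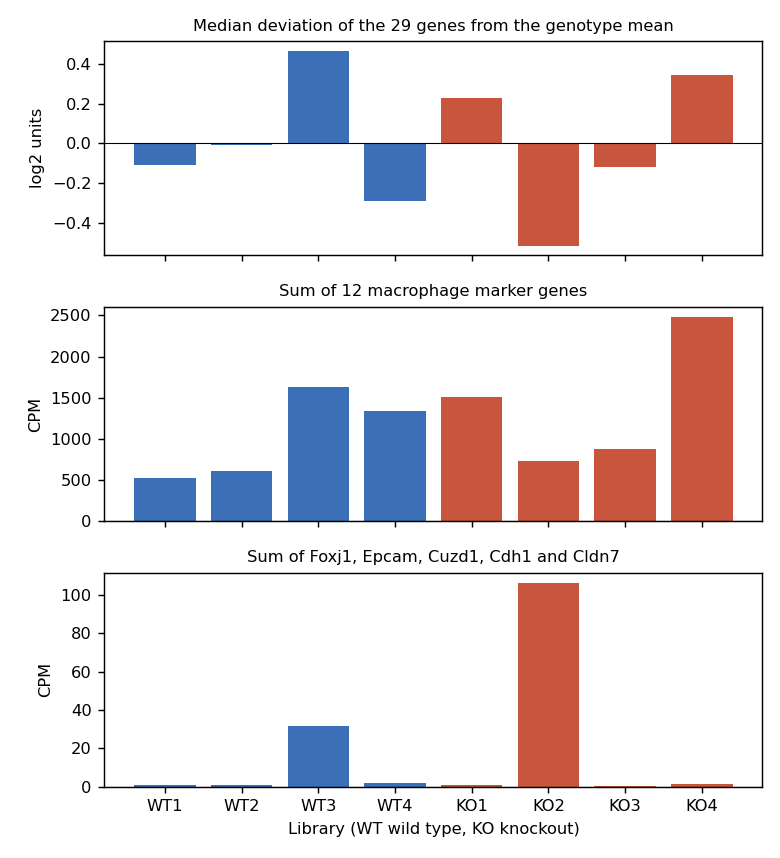
Per library, the median deviation of the 29 genes from the genotype mean in log2 units (top), the summed CPM of 12 macrophage markers (middle) and of 5 epithelial markers without Krt8 and Krt18 (bottom), with wild type in blue and knockout in red. Wild-type library 4 combines a low median of -0.29 with 1341 CPM of macrophage markers, and these 5 epithelial markers reach 31.5 and 106 CPM in wild-type library 3 and knockout library 2.

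The comparison of genotypes depended on wild-type library 3 and knockout library 2. Wild-type library 3 was the highest of its genotype in 24 of the 29 genes, and knockout library 2 the lowest of its own in 24. Leaving them out therefore raises most of these fold changes and narrows both groups by construction. For this reason the shares over all tested genes are not an equal baseline for the counts without these 2 libraries. Without both, the estimate was above 0 for 26 of the 29 genes and the median was 0.36, against -0.005 over all 14434 genes tested in these 6 libraries. At an unadjusted p under 0.05 there were 9 of the 29 genes, all higher in knockout, where 5.58% of all tested genes had such a p. Still no gene passed: 0% of tested genes had an adjusted p under 0.05 in edgeR, and the smallest among the 29 was 0.87. Without this pair 10 of the 29 genes had all 3 knockout libraries above all 3 wild-type libraries, and 9.8% of all tested genes had groups that did not overlap in either direction. The 9 genes with the smaller p were Trim25, Irf7, Oasl1, Stat2, Oas2, Bst2, Irf9, Parp14 and Oas3. Among them, Trim25 had a log2 fold change of 0.60 (95% interval 0.32 to 0.88, unadjusted p = 0.00139), Irf7 one of 0.40 (0.17 to 0.62, unadjusted p = 0.00394) and Oasl1 one of 1.20 (0.48 to 1.91, unadjusted p = 0.00545), each with an edgeR adjusted p of 0.87. Isg15 was at 0.35 (-0.34 to 1.04), and the sensor Ifih1 stayed at -0.003 (-0.27 to 0.26). Macrophage markers moved in the same direction in these 6 libraries, with 11 of 12 above 0 and a median of 0.92, against 0.38 in all 8. Their sum was highest among wild types in wild-type library 3 (1634 CPM) and lowest among knockouts in knockout library 2 (727 CPM). Leaving both out therefore raises the macrophage fold changes by construction as well. T and NK cell markers lay above 0 in 12 of 12, with a median of 0.80, against 11 of 12 and 0.41 in all 8 libraries. Their sum was also highest among wild types in wild-type library 3 (16.2 CPM), so leaving it out raises these values too. Fibroblast and progenitor markers had a median of 0.54, with 4 of 6 above 0, against 0.19. All 4 tested smooth muscle markers lay below 0, with a median of -0.97 and 2 at an unadjusted p under 0.05 in edgeR, against a median of -0.51 in all 8 libraries. Not all immune markers rose, since B cell markers lay above 0 in 1 of 6, with a median of -0.27. Conventional dendritic cell markers lay above 0 in 5 of 7 (median 0.23) and mesothelium markers in 0 of 5 (median -0.31). The part of these cell types in the result was not tested.

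**Figure D5:**
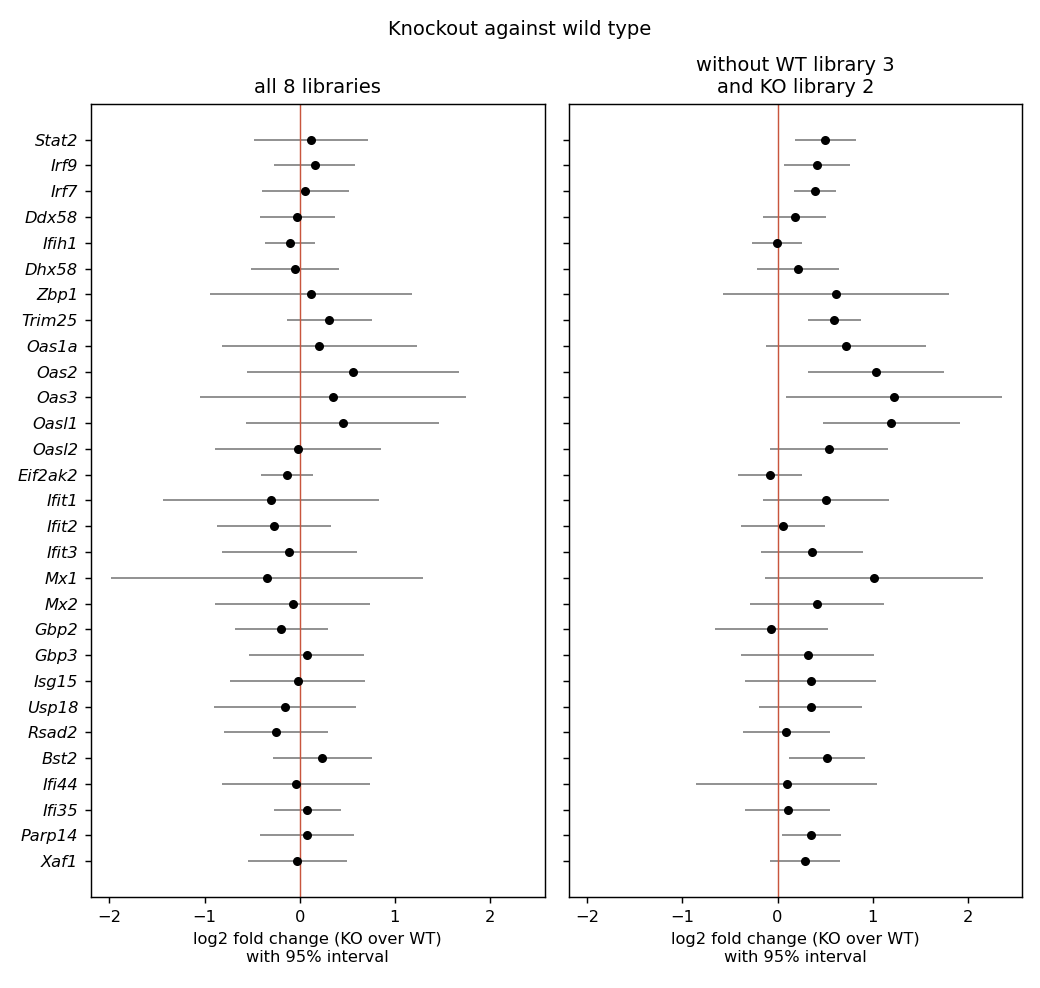
Log2 fold change of knockout over wild type with its 95% interval for each gene, from all 8 libraries (left) and from the 6 that remain when wild-type library 3 and knockout library 2 are left out (right). All 29 intervals on the left include 0. On the right 26 of the 29 estimates lie above 0, but only 9 intervals lie wholly above 0 and the others include it.

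Leaving out 1 library at a time moved the set as well. Without wild-type library 3 the median log2 fold change was 0.23 with 23 of 29 genes above 0, and without knockout library 2 it was 0.13 with 22 above 0. Without knockout library 4 it was -0.14 with 8 above 0. No gene passed the threshold in any of these fits.

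Other genes of the pathway were taken from lists by role, which held 111 tested genes besides the 29. None of the 111 passed in either direction (edgeR), 75 were estimated above 0, and their median was 0.072. Without wild-type library 3 and knockout library 2, 90 of 112 were estimated above 0 with a median of 0.23, again with none past the threshold. In these 6 libraries 19 higher and 2 lower had an unadjusted p under 0.05 in edgeR, where 5.58% of all tested genes had such a p. The lists include 42 type I and 29 interferon gamma responsive genes. Their median deviations from the genotype mean were 0.24 and 0.32 in wild-type library 3, and -0.36 and -0.55 in knockout library 2. Leaving both out raises such fold changes by construction, so that share is not an equal baseline. The interferons themselves were close to undetected. Of 19 interferon genes matched by symbol 14 had 0 counts in every library, none could be tested, and apart from Ifng the highest count in any library was 3. Ifnb1, interferon beta, had 1 count in wild-type library 1 and 0 elsewhere. Ifng, interferon gamma, had 3, 0, 9 and 5 counts in wild-type libraries 1 to 4 and 0, 1, 2 and 8 in knockout libraries 1 to 4. At this depth no difference in interferon transcripts was detectable.

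The receptors and signalling proteins were well expressed. Ifnar1 measured 61.5, 61.7, 63.2 and 59.8 CPM across the wild-type mice against 64.3, 66.7, 63.9 and 73.3 CPM across the knockout mice. Every knockout library lay above every wild-type library, and 1.44% of all tested genes had groups that did not overlap in either direction. The log2 fold change of Ifnar1 was only 0.12 (95% interval -0.05 to 0.30, unadjusted p = 0.148, adjusted p = 1 in edgeR). Ifnar2 was at 110 ± 3.69 and 124 ± 27.9 CPM and Ifngr1, a receptor chain for interferon gamma, at 320 ± 69.3 and 305 ± 81.0 CPM. The kinase Jak2 was at 57.1 ± 5.81 and 48.8 ± 4.12 CPM (-0.23 on the log2 fold scale, SE 0.10, unadjusted p = 0.0546), and Tyk2 at 29.7 ± 3.72 and 33.8 ± 5.39 CPM. Of the other interferon regulatory factors, Irf1 was at 52.7 ± 6.62 and 55.6 ± 9.41 CPM and Irf3 at 59.2 ± 2.81 and 62.2 ± 7.16 CPM. Irf4 and Irf5, both known from immune cells, were at 6.82 ± 1.49 and 9.94 ± 4.77 CPM and at 18.5 ± 7.77 and 29.8 ± 18.2 CPM.

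Upstream adaptors and brakes did not pass either. Ikbke, a kinase that activates Irf3 and Irf7, was at 9.66 ± 2.29 and 12.96 ± 4.56 CPM, and the adaptor Myd88 at 24.7 ± 1.06 and 27.9 ± 4.78 CPM. The phosphatase gene Ptpn11 was at 344 ± 29.1 and 290 ± 24.5 CPM (-0.25 on the log2 fold scale, SE 0.11) and Ptpn6, a phosphatase of blood cells, at 9.98 ± 3.51 and 14.4 ± 7.50 CPM.

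Of 42 further type I responsive genes 21 lay above 0 and 21 below, with a median of -0.011. This even division was not kept without wild-type library 3 and knockout library 2, where 31 lay above 0 and 11 below, with a median of 0.18. There 6 higher and 1 lower had an unadjusted p under 0.05 in edgeR, where 5.58% of all tested genes had such a p. Over these 42 genes the median deviation from the genotype mean was 0.24 in wild-type library 3 and -0.36 in knockout library 2. Leaving both out therefore raises such fold changes by construction. Tdrd7, an antiviral factor that limits autophagy, had the only unadjusted p under 0.05 in edgeR among the 111 genes (0.00719). Of all tested genes, 2.23% had such a p. Tdrd7 measured 115, 131, 137 and 145 CPM across the wild-type mice against 105, 107, 110 and 96.3 CPM across the knockout mice. Its groups did not overlap, which was so in 1.44% of all tested genes. It lay at -0.34 on the log2 fold scale (SE 0.098, adjusted p = 1 in edgeR). Isg20, an exonuclease, was at 22.4 ± 2.04 and 18.5 ± 2.93 CPM. In Tdrd7 wild-type library 4 was the highest of the 8 and knockout library 4 the lowest.

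Interferon gamma responsive genes were above 0 in 25 of 29 tested members, with a median of 0.14 and none past the threshold. In the 6 libraries left without wild-type library 3 and knockout library 2 it was 27 of 30, with a median of 0.46, and again none passed. There 5 were higher at an unadjusted p under 0.05 in edgeR, where 5.58% of all tested genes had such a p. The same limit holds, since the median deviation of the 29 from the genotype mean was 0.32 in wild-type library 3 and -0.55 in knockout library 2. Psmb8, an immunoproteasome subunit, was at 49.1 ± 5.48 and 58.9 ± 14.6 CPM, and Serpina3g, which shares exonic bases with Serpina3f, at 1.73 ± 0.431 and 2.78 ± 1.07 CPM. Knockout library 1 was the highest of the 8 in 13 of these 29 genes and knockout library 4 in 11. Of the 29 interferon-stimulated genes, knockout library 1 was the highest in 4, knockout library 4 in 9 and wild-type library 3 in 12. Over all tested genes the shares were 8.80% for knockout library 1, 13.7% for knockout library 4 and 6.64% for wild-type library 3.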

How the data were processed

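For each mouse the authors deposited unnormalized read counts by gene symbol. Named in the submitters' processing notes are mm10, Cufflinks, featureCounts, STAR 2.4.0g1, FastQC 0.11.2 and edgeR, without roles or strand setting. The authors' deposited exon annotation, whose other values are start and end positions, gave gene positions, exonic lengths for RPKM and overlaps.

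Genes were kept with filterByExpr and compared with edgeR 4.0.16 (R 4.3.3): TMM scaling, robust quasi-likelihood F test, no covariate, Benjamini-Hochberg adjustment over all genes. SEs are those the F statistic implies. CPM uses TMM-scaled library sizes; log2 CPM has a prior count of 2. Groups come from the labels; no replicate pair agreed within sampling noise (smallest chi-square per degree of freedom 63.0). The labels give 4 mice per genotype, so p-values weigh the difference between genotypes against the spread between mice. On simulated 4 against 4 counts (14360 genes, 200 changed), 59.8% of 2-fold and 88.6% of 4-fold changes were recovered at 1 CPM or more. Interferon-stimulated genes varied more between mice, with a median within-genotype SD of log2 CPM of 0.44 against 0.25 over all tested genes. These shares therefore do not tell how often a change in the interferon-stimulated genes would be recovered.

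The 29 genes, the other lists and the libraries left out were chosen with earlier results of these data known, so no list was tested. All 29 genes are named, and per-library values are given for up to 2 per functional group with the smallest p and for Irf7, Stat2, Isg15 and Oas1a; of each pathway list, up to 2 with the smallest p and Ifnar1, Ifnar2, Ifngr1, Ifng, Ifnb1, Irf1 and Irf3. Of 263 listed genes 243 matched directly, 8 by another symbol and 12 did not. The targeted gene and 1 gene of that rule are not reported here. Alternatives were other scalings and filters, non-robust dispersion, DESeq2 1.42.0, limma 3.58.1 voom, a replicate block and libraries left out.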

Additional observations from a re-analysis of the deposited data

Results flagged for a closer look

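In 4 of 58 groups of 4 libraries, 1 library lay far from the other 3 by Dixon's test on log2 CPM, where 1 in 20 groups would give about 2.9. The groups were not independent, since the genes moved together across the same mice. Setting 4 against 2.9 therefore cannot tell whether these values lie within chance. Irf7 was at 5.50 in wild-type library 3 and at 4.71 to 4.80 in the other wild-type libraries. In knockout library 2 Irf7 was at 4.65, with 5.12 to 5.17 in the other knockout libraries. The same library had Stat2 at 4.01, with 4.98 to 5.17 elsewhere in the knockout, and Ifih1 at 4.64, with 4.98 to 5.04 elsewhere in the knockout. The 4 values came from wild-type library 3 and knockout library 2.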

How the results depend on the processing

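Under 17 alternatives no interferon-stimulated gene passed the threshold, the smallest adjusted p being 0.87, and 434 of 492 log2 fold changes kept their sign. The genes that kept 1 sign throughout were Irf9, Ifih1, Trim25, Oas2, Oasl1, Eif2ak2, Gbp2, Bst2, Ifi35. With wild-type library 3 left out along with knockout library 2, 26 genes lay above 0, the median was 0.36, and the sign turned in Ddx58 (0.18), Dhx58 (0.22), Oasl2 (0.54), Ifit1 (0.51), Ifit2 (0.059), Ifit3 (0.36), Mx1 (1.02), Mx2 (0.41), Isg15 (0.35), Usp18 (0.35), Rsad2 (0.091), Ifi44 (0.096), Xaf1 (0.29). With total-count scaling the sign turned in Ddx58 (0.0028) and Isg15 (0.0055). With limma voom the sign turned in Mx1 (0.13) and Ifi44 (0.037). With the replicate number as a block, which the titles give but which did not pair the mice, the sign turned in Mx1 (0.18) and Ifi44 (0.043). Correlations of same-numbered mice were 0.12, -0.015, -0.32 and -0.017, and with the block 0 of the 29 genes and 0 of all genes passed. Total-count scaling put 61.6% of all tested genes above 0, against 53.1%. With 1 library left out, the number of genes above 0 ran from 8 to 23 and the median from -0.14 to 0.23; ranges that crossed 0 were Stat2 -0.0075 to 0.32, Irf7 -0.021 to 0.29, Ddx58 -0.13 to 0.10, Dhx58 -0.18 to 0.13, Zbp1 -0.28 to 0.45, Oas1a -0.18 to 0.48, Oas3 -0.19 to 0.93, Oasl2 -0.22 to 0.32, Ifit1 -0.53 to 0.23, Ifit3 -0.30 to 0.23, Mx1 -0.76 to 0.83, Mx2 -0.24 to 0.29, Gbp3 -0.19 to 0.24, Isg15 -0.24 to 0.18, Usp18 -0.33 to 0.17, Ifi44 -0.28 to 0.20, Parp14 -0.027 to 0.25, Xaf1 -0.14 to 0.13. The 1 CPM filter left out Oas3. DESeq2 called 17 genes of the whole table and limma voom 0, none of them among the 29. The cause of these sign changes was not tested. Mx1 and Oas3 reached the lowest counts of the 29 genes, each with 19 counts in its lowest library.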

Other observations

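Among the interferon gamma responsive genes, the immunity-related and guanylate-binding GTPases act against intracellular pathogens. They stood highest in knockout library 1 in 10 of 14 tested members, a grouping chosen after the values were seen. Of all tested genes, 8.80% were highest in that library. Iigp1 measured 25.1, 42.8, 41.5 and 15.2 CPM across wild-type libraries 1 to 4, against 75.3, 13.8, 18.6 and 31.7 CPM across knockout libraries 1 to 4. Gbp4 was at 54.6 CPM and Igtp at 43.3 CPM in knockout library 1, against at most 29.5 and 25.2 CPM in the other libraries. Ifng itself had 0 counts in knockout library 1, but its counts were too few to be tested between genotypes. In that library the T and NK cell markers summed to 8.37 CPM, the lowest of the knockout libraries. The cause of the high GTPase levels in knockout library 1 was not tested. None of these GTPases passed between genotypes.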
